A study of Mus musculus with 3 samples.

Results

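The transcripts of 9 genes of the epidermal growth factor (EGF) family were followed through the cell types of the adult mouse lacrimal gland (LG). They were taken by name as 6 ligand genes, Nrg1, Nrg2, Areg, Ereg, Hbegf and Tgfa, and 3 receptor genes, Egfr, Erbb2 and Erbb3, out of 32285 genes in the matrices. The choice went by name and by the roles of the gene products, with no threshold on a measured value. The glands came from C57BL/6J mice of 2 months of age without treatment, and each of 3 droplet libraries held 6 glands pooled from 3 mice. One library was made from female mice, and Male library 1 and Male library 2 were made from male mice. The female library was also prepared at another core facility on another day than the male libraries, so that sex, facility and day cannot be told apart and no comparison between the sexes was made. Every test below therefore compares cell types across the 3 libraries, and its p-value measures the spread between pooled libraries, not between single mice.

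The EGF family works as pairs of secreted ligands and membrane receptors. Most ligands are made as membrane-bound precursors, are cut loose by metalloproteases such as ADAM17 and bind receptor tyrosine kinases on nearby cells. Amphiregulin, epiregulin, heparin-binding EGF-like growth factor and transforming growth factor alpha (Areg, Ereg, Hbegf and Tgfa) bind EGFR, whereas the neuregulins (Nrg1 and Nrg2) bind ERBB3 and ERBB4. ERBB2 has no known ligand of its own and acts as the partner in receptor pairs, and ERBB3 has little kinase activity and signals through its partner. In glands such as the mammary and salivary glands the family is known for its part in branching, in the survival of ductal cells and in repair. The LG itself is built of acinar cells that secrete the watery part of tears, ducts, and contractile myoepithelial cells (MECs) that wrap the acini.

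On the mm10 build, which is GRCm38, the annotation placed Nrg1 on the minus strand at chr8:31814551-32884029 and Egfr on the plus strand at chr11:16752203-16918158. Erbb2 lay on the same chromosome at chr11:98412470-98437716, and Erbb3 lay at chr10:128567523-128589652. Areg and Ereg were neighbours at chr5:91139599-91148432 and chr5:91074622-91093646, and Tgfa lay at chr6:86195223-86275719. Nrg2 and Hbegf are both on chromosome 18. The counts are of whole genes, since the chemistry reads the 3′ ends of transcripts, and do not separate the isoforms of Nrg1 or any other member.

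After filtering, 7652 cells of the Female library and 5295 and 5397 of the first and the second Male library were kept, with medians of 3254, 1885 and 1789 unique molecular identifiers (UMIs) per cell. Pairs of libraries shared 12 to 18 cell barcodes. Clusters were named from marker lists that hold none of the 9 genes, and the names carry "-like" because they rest on markers alone. The MEC-like class held 335, 320 and 274 cells with all 7 of its markers detected. Each class had the highest sum of its own markers in every library, except that mural-like cells, at 53, 44 and 51 cells, overlapped the MEC-like class through 3 of its 7 markers. Mast-like cells, at 32, 16 and 16, were the fewest. RNA of tear proteins filled 80.4% to 88.7% of the UMIs of epithelial cells and 32.2% to 62.2% of those of the other cells, so the level of a gene is given as its UMIs scaled to a total of 1000000 UMIs outside tear-product and mitochondrial genes, in CPM. Between 58183 and 70227 barcodes per library had over 500 UMIs without having been called as cells, and 90.3% to 92.0% of their UMIs were tear products. In the classes other than acinar-like and Ltf+-like, if every tear-product UMI were free RNA of that composition, it could give all UMIs of a member in 1 of 54 pairs of gene and class, Egfr in myeloid-like cells. Barcodes of 10 to 100 UMIs held at most 1 UMI of any member per library, too few for such a limit. With their composition it reached 4 pairs, all Erbb3 outside the epithelium and resting on 1 Erbb3 UMI.

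**Figure D1:**
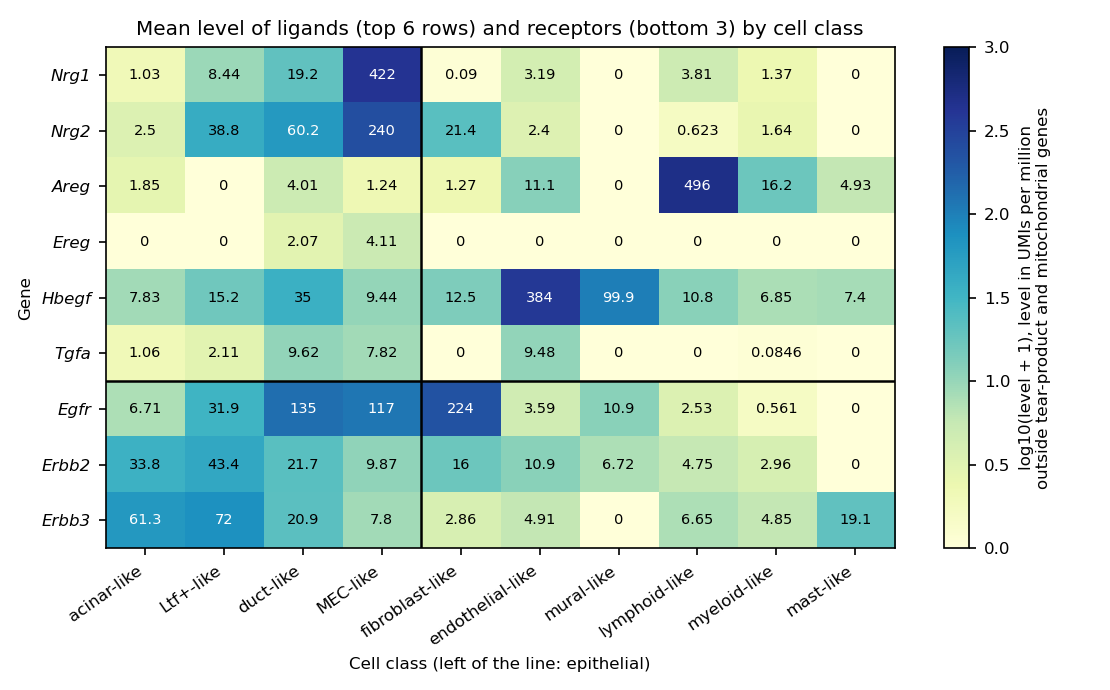
Mean level of each of the 9 genes (printed in CPM outside tear-product and mitochondrial genes, coloured on the log10 scale of level + 1) in the 10 named cell classes, over 3 libraries. Nrg1 and Nrg2 were highest in MEC-like cells, Areg in lymphoid-like cells, Hbegf in endothelial-like cells, Egfr in fibroblast-like cells and Erbb2 and Erbb3 in Ltf+-like and acinar-like cells.

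Nrg1, which encodes neuregulin 1, a ligand of ERBB3 and ERBB4, was concentrated in the MEC-like class. Its level there was 394 CPM in Female cells and 399 and 473 CPM in cells of Male libraries 1 and 2, the order used for all values below, with a mean of 422 ± 44.1 (SD, n = 3). The 3 libraries stood close together, and MEC-like cells held 522 of the 592 Nrg1 UMIs of all kept cells, or 88.2%. Duct-like cells came next with 8.06, 32.1 and 17.5 CPM, so that the highest duct value was far below the lowest MEC value. Most of the duct signal came from 1 of 3 duct-like clusters, which held 23 of the 33 duct UMIs. The MEC marker Acta2 was also higher in this cluster, at 62.1, 298 and 168 CPM against 0 to 58.9 in the other duct-like clusters. Cnn1, another MEC marker, overlapped, at 2.87, 7.64 and 12.0 CPM from 5 UMIs against 0 to 11.9 in the other duct-like clusters. The sum of all 7 MEC markers, 4525 to 6353 CPM, overlapped their 4664 to 5803. That list includes Krt5, at 1284 to 1621 CPM in duct-like against 627 to 714 in MEC-like cells, so the sum cannot show MEC RNA here. The part of MEC RNA was not tested. Ltf+-like cells, an epithelial class with lactoferrin transcripts, had 8.44 ± 2.00 CPM from 16 UMIs, and their range overlapped that of the duct-like class. The Ltf+-like class joined 2 clusters, of 657 and 496 cells. The second was mixed, as its score on the markers of Car6hi acinar cells, 1.41, was close to its Ltf+ score of 1.67. Acinar-like cells were at 1.03 ± 0.58 from 8 UMIs in 4215 cells. After each cell was thinned to 1000 UMIs, 20.4%, 18.2% and 17.7% of MEC-like cells had an Nrg1 UMI, and over the libraries 168 of 889 cells did, or 18.9% (exact binomial 95% interval 16.4% to 21.6%). Among acinar-like cells, a class not expected to carry it, 1 of 4132 did, or 0.024%. Intervals of this kind cover counting error only, and the thinning left out 40 MEC-like and 83 acinar-like cells that were shallower. The study had already named Nrg1 and Nrg2 in MECs from these same samples, so their counts here are not independent evidence. Over 24 groups of cells, the genes whose levels followed Nrg1 most closely were Pcp4 (Pearson's r = 0.94), Cck (r = 0.93) and Trnp1 (r = 0.88). These groups share libraries, Pcp4 is itself one of the MEC markers, and the values are a description.

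Nrg2, the gene of neuregulin 2, was also highest in MEC-like cells but reached further into the ducts and the stroma. MEC-like cells had 257, 264 and 199 CPM, duct-like cells 69.6, 64.2 and 46.7, Ltf+-like cells 40.6, 41.1 and 34.8, and fibroblast-like cells 27.8, 12.6 and 23.9. These 4 classes did not overlap in their ranges over the libraries, with means of 240 ± 35.7, 60.2 ± 12.0, 38.8 ± 3.51 and 21.4 ± 7.92 (SD, n = 3). Acinar-like cells followed at 2.50 ± 2.06 and did not differ beyond their spread from endothelial-like and myeloid-like cells. The Ltf+-like cluster of 657 cells was at 44.5 ± 5.67 CPM and overlapped duct-like cells. The mixed Ltf+-like cluster was at 26.2 ± 14.9 and overlapped fibroblast-like cells. On the scale of all UMIs fibroblast-like cells came before Ltf+-like cells, at 11.5 against 8.83 CPM, and their ranges overlapped. Of 766 Nrg2 UMIs, 41.8% were in MEC-like, 27.9% in duct-like and 15.4% in fibroblast-like cells. Within the fibroblast-like class, parenchymal-like fibroblasts held 99 of the 118 UMIs, at 28.0 ± 8.68 CPM. Within the acinar part, the small Car6hi-like group of 175 cells was at 24.4, 69.7 and 31.7 CPM, but from 7 UMIs in all. At 1000 UMIs per cell, 12.3% of 889 MEC-like cells had an Nrg2 UMI (10.2% to 14.6%), against 4.02% of 1616 duct-like (3.12% to 5.10%), 1.25% of 2556 fibroblast-like (0.86% to 1.76%) and 0.12% of 4132 acinar-like cells. Mme (r = 0.93), Trnp1 (r = 0.89) and Fgfr2 (r = 0.87) had the closest pattern over the 24 groups.

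Nrg2 was found both in MEC-like cells with and in those without an Nrg1 UMI. With no thinning, it was detected in 48.7% of Nrg1-positive and 37.3% of Nrg1-negative MEC-like cells of the Female library. In Male library 1 the shares were 22.2% and 17.8%, and in Male library 2 they were 12.7% and 13.8%. The order of the 2 shares thus differed between libraries, and in the Female library the Nrg1-positive cells were also deeper, with a median of 3722 against 3312 UMIs. Egfr, described below, was found with Nrg1 in 45, 6 and 6 MEC-like cells of the 3 libraries.

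Areg, the gene of amphiregulin, an EGFR ligand also made by immune cells during tissue repair, was a lymphoid transcript in this gland. Lymphoid-like cells had 660, 501 and 326 CPM and held 833 of 922 UMIs, or 90.3%. Myeloid-like cells, the next in order, had 3.05, 31.1 and 14.3, below every lymphoid value. The parts of the lymphoid class differed widely. Cells like innate lymphoid cells (ILCs), tissue-resident lymphocytes without antigen receptors, were at 1719, 1662 and 1696 CPM, a mean of 1692 ± 28.6 (SD, n = 3) from 532, 63 and 42 UMIs. The 3 libraries were nearly level in ILC-like cells. Gamma-delta-T-like cells had 727 in the Female library against 184 and 74.4 in the male libraries, the last from 2 UMIs, and NK-like cells had 2 UMIs in all. A plasma-like cluster was at 672, 134 and 493 CPM from 49, 1 and 11 UMIs. This cluster and the gamma-delta-T-like one also carried ILC markers, which summed to 941 to 2140 and 699 to 1589 CPM against 4195 to 5358 in ILC-like and 60.8 to 126 in NK-like cells, and the part of such cells in the Areg values was not tested.

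At 1000 UMIs per cell, an Areg UMI was found in 46.6% of 251, 32.3% of 96 and 20.0% of 35 ILC-like cells of the 3 libraries. The order of the shares was not that of the levels. The shares count UMIs of any gene, whereas the levels were alike only outside tear-product and mitochondrial genes. No difference is read from the shares. Of NK-like cells 1 of 227 had an Areg UMI at that depth, or 0.44% (0.01% to 2.43%). ILCs had been named for Areg by the study on these samples. Gata3 (r = 0.92), Cdk11b (r = 0.90) and Il7r (r = 0.90) followed Areg most closely over the 24 groups, and Gata3 and Il7r are markers of the lymphoid lists.

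**Figure D2:**
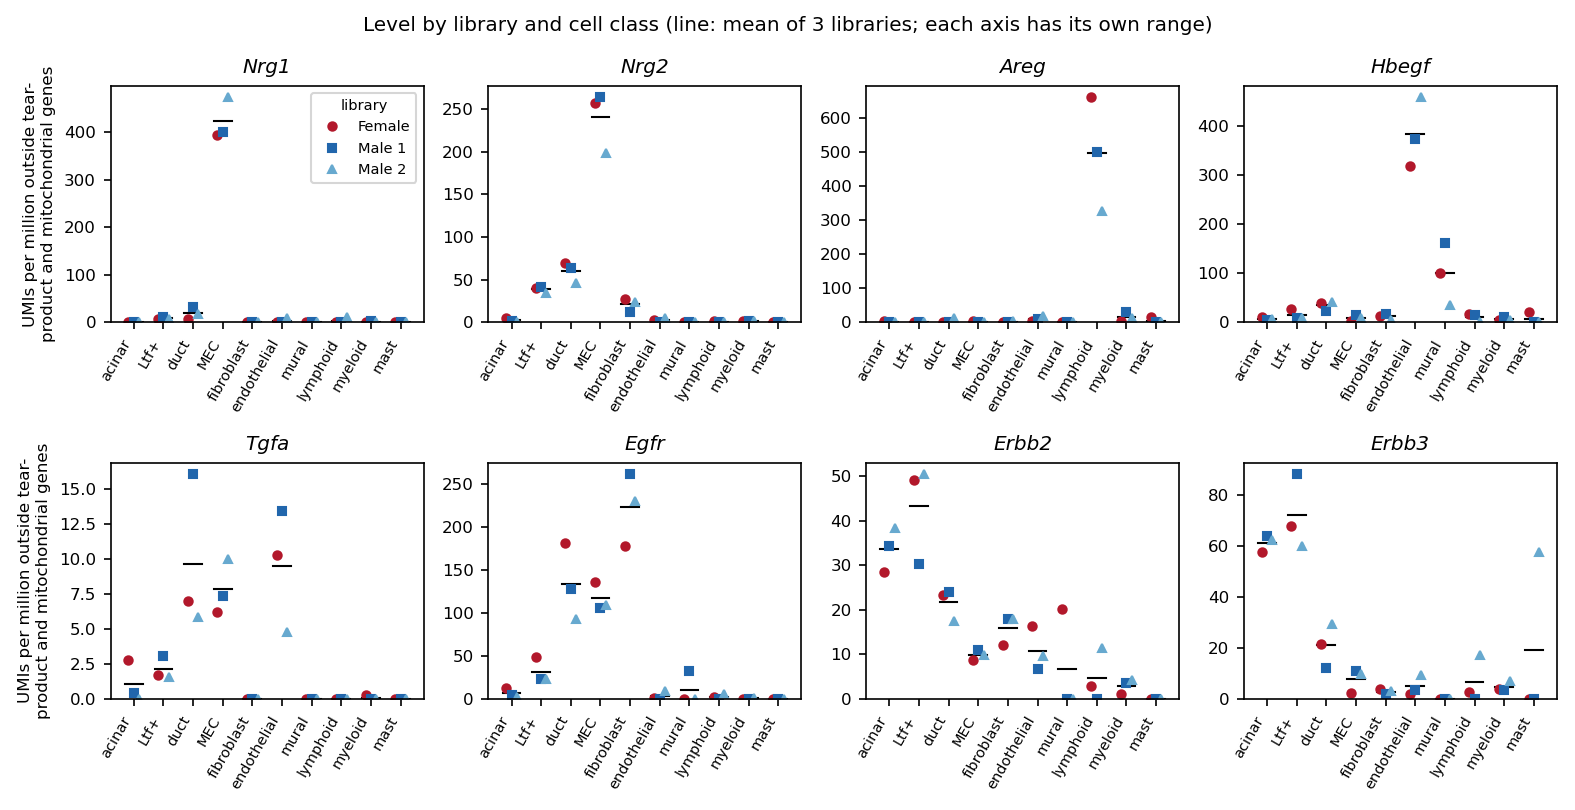
Level of 8 of the genes (all but Ereg) by cell class (CPM outside tear-product and mitochondrial genes), with 1 point per library and a line at the mean of the 3 libraries. The MEC-like points of Nrg1 lie between 394 and 473, above every other class, whereas the points of Erbb2 and Erbb3 in Ltf+-like and acinar-like cells overlap.

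Hbegf, whose product binds EGFR and ERBB4 and is held near the cell by heparan sulphate, was chiefly endothelial. Endothelial-like cells had 319, 374 and 459 CPM, a mean of 384 ± 70.3 (SD, n = 3), and held 736 of 1095 UMIs. Mural-like cells, of the kind that wrap around vessels, had 101, 163 and 36.1 CPM from 16 UMIs, with Pecam1 and Cdh5, defining endothelial markers, at 0. The mural and duct-like ranges overlapped, with duct-like cells at 39.9, 24.1 and 40.9 CPM. The other 7 classes lay between 6.85 and 15.2 and overlapped from neighbour to neighbour. Within the endothelium, venous-like cells were at 346, 363 and 464 CPM and capillary-like cells at 313, 352 and 394, and these ranges overlapped. Arteriolar-like cells had 182, 0 and 138 CPM from 20, 0 and 1 UMIs, and only the Female count was deep enough to place them below both. At 1000 UMIs per cell, 16.0%, 12.1% and 17.9% of endothelial-like cells had an Hbegf UMI (231 of 1521 over the libraries, 15.2%, 13.4% to 17.1%), against 0.34% of 3224 myeloid-like cells. Esam (r = 0.87), Plvap (r = 0.87) and Aqp1 (r = 0.85), genes of vessel cells of which Plvap is a capillary marker, came closest over the 24 groups.

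Tgfa and Ereg, the genes of transforming growth factor alpha and epiregulin, were near the limit of detection. Tgfa had 68 UMIs over all kept cells, 24 in duct-like, 22 in endothelial-like and 9 in MEC-like cells. Its levels of 9.62 ± 5.60, 9.48 ± 4.35 and 7.82 ± 1.93 CPM in these classes overlapped. The Ltf+-like level of 2.11 ± 0.81 rests on 4 UMIs, too few to place it. Ereg had 10 UMIs, 8 in MEC-like and 2 in duct-like cells, and 7 of them came from MEC-like cells of the Female library. No Ereg UMI was seen in any other class, which at this depth sets only an upper limit.

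Egfr, the receptor of Areg, Ereg, Hbegf and Tgfa, was found in the stroma and in 2 epithelial classes. Fibroblast-like cells had 179, 262 and 230 CPM, duct-like cells 182, 128 and 93.4, and MEC-like cells 136, 106 and 109. The means were 224 ± 42.4, 135 ± 44.4 and 117 ± 16.4 (SD, n = 3), and each class overlapped the next. The Female library was the highest for duct-like and MEC-like cells and the lowest for fibroblast-like cells. Ltf+-like cells were lower at 49.1, 22.8 and 23.7 CPM, and acinar-like cells lower still at 12.7, 4.73 and 2.66, and mural-like, endothelial-like, lymphoid-like and myeloid-like cells held 1, 4, 3 and 2 Egfr UMIs. Within the Ltf+-like class Egfr was at 64.9, 30.0 and 28.7 CPM in the cluster of 657 cells. In the mixed cluster it was at 6.27, 5.26 and 16.0 from 6 UMIs, which overlapped the acinar-like range. Among fibroblast-like cells, adventitial-like cells were at 340, 339 and 280 CPM and parenchymal-like cells at 169, 247 and 193, so that these ranges did not overlap. The adventitial-like values of the male libraries rest on only 10 and 11 UMIs. Fibroblast-like cells without a finer name were at 175, 314 and 346 CPM from 240 UMIs and overlapped both groups. Pdgfrl+-like fibroblasts had 30.4, 69.7 and 0 CPM from 7 UMIs. At 1000 UMIs per cell, 11.4% of 2556 fibroblast-like cells had an Egfr UMI (10.2% to 12.7%), 8.48% of 1616 duct-like (7.17% to 9.94%), 6.64% of 889 MEC-like (5.09% to 8.48%) and 0.062% of 3224 myeloid-like cells. Sult5a1 (r = 0.96), Efemp1 (r = 0.95) and Fst (r = 0.93) had the most similar pattern.

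Erbb2 and Erbb3, the genes of the partner receptor and of the neuregulin receptor, were highest in the secretory epithelium on the scale without tear-product UMIs. On the scale of all UMIs the acinar-like class was 7th of 10 for Erbb2 (2.88 against 10.95 CPM in duct-like cells) and 4th for Erbb3 (5.23 against 10.4). For Erbb3, Ltf+-like cells had 67.7, 88.2 and 60.1 CPM and acinar-like cells 57.6, 63.9 and 62.4, with means of 72.0 ± 14.6 and 61.3 ± 3.28 that overlapped. Duct-like cells were below both at 21.6, 12.0 and 29.2, and MEC-like cells had 2.48, 11.0 and 9.95 from 7 UMIs. Within the Ltf+-like class the cluster of 657 cells was at 80.3 ± 13.2 and the mixed one at 51.7 ± 32.6. The mean of 19.1 CPM in mast-like cells rests on 1 UMI. Erbb2 was flatter. Ltf+-like cells had 49.1, 30.4 and 50.6 CPM and acinar-like cells 28.6, 34.3 and 38.4, again overlapping. Duct-like cells followed at 21.7 ± 3.62, fibroblast-like at 16.0 ± 3.36 and MEC-like cells at 9.87 ± 1.16, the last from 12 UMIs. MEC-like cells, where both neuregulin ligands were highest, were the lowest epithelial class for both of these receptors on this scale, whereas with all UMIs the acinar-like class was lower than they were for Erbb2, at 2.44, 3.01 and 3.19 against 5.86, 5.09 and 4.35 CPM. With all UMIs Erbb3 in MEC-like cells, at 1.67, 5.09 and 4.35 CPM, overlapped acinar-like cells at 4.91, 5.61 and 5.18. Free RNA of the barcodes over 500 UMIs could give at most 5.30, 2.32 and 4.57 of the 40, 58 and 38 Erbb3 UMIs of Ltf+-like cells, and that of the barcodes of 10 to 100 UMIs 32.5 of the 40 in the Female library.

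The acinar-like class was not uniform for Erbb3. In 1 acinar-like cluster of 447 cells Erbb3 was at 177, 164 and 130 CPM, and in another of 884 cells at 81.6, 121 and 102, whereas the largest, of 1039 cells, averaged 38.4 CPM. The small Tfrchi-like acinar group had 113, 171 and 53.4 for Erbb3 and 113, 37.9 and 107 for Erbb2, from 21 and 17 UMIs. Acinar-like cells carry mostly tear-product RNA, and at 1000 UMIs of any gene only 1.19% of 4132 had an Erbb3 UMI (0.88% to 1.57%) and 0.70% an Erbb2 UMI (0.47% to 1.01%), against 3.02% and 1.96% of 1125 Ltf+-like cells. In fibroblast-like cells the Erbb3 share was 0.078% of 2556. Thrb (r = 0.92), Rnf103 (r = 0.89) and Qpctl (r = 0.89) followed Erbb2, and Atp11a (r = 0.93), Fam221a (r = 0.93) and Gm16136 (r = 0.92) followed Erbb3 most closely.

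**Figure D3:**
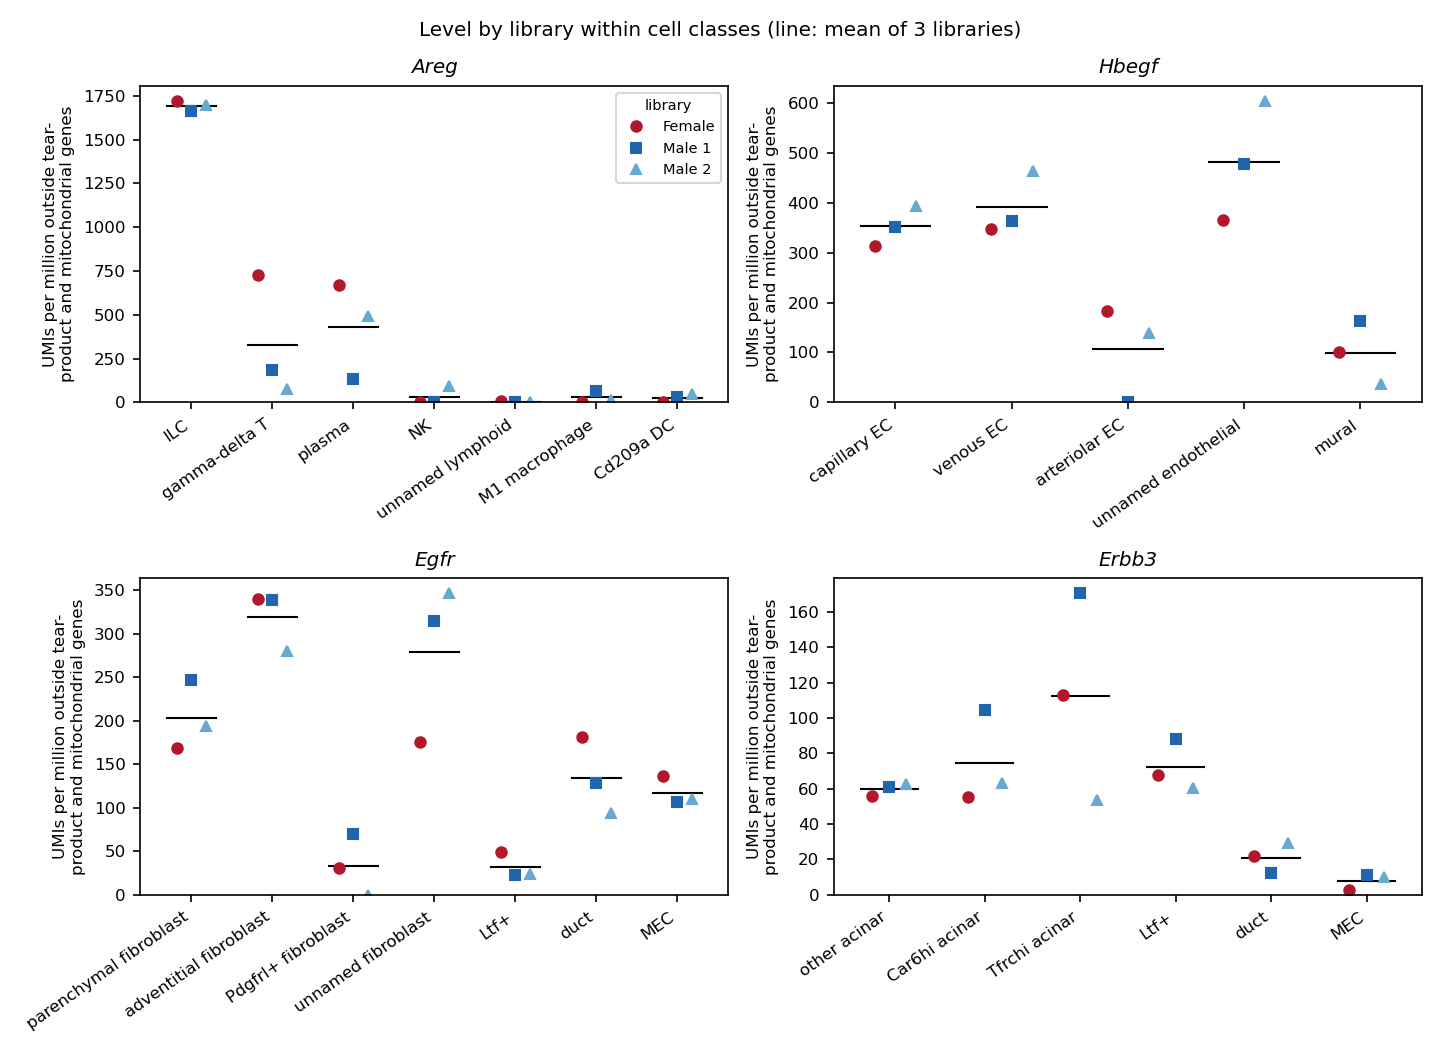
Levels of Areg, Hbegf, Egfr and Erbb3 (CPM outside tear-product and mitochondrial genes) in finer groups of cells, with 1 point per library and a line at the mean. Areg in ILC-like cells lies at 1662 to 1719. Egfr in adventitial-like fibroblasts lies above that in parenchymal-like fibroblasts in all 3 libraries, on 10 and 11 UMIs in the male ones, and unnamed fibroblasts overlap both.

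The levels were then compared with edgeR's quasi-likelihood test on UMIs summed per library and cell group, with the library as a block and the p-values adjusted by Benjamini-Hochberg for the number of genes in each fit, and a gene was called at an adjusted p under 0.05. All adjusted p-values that follow come from this test. Because the classes were built from the same cells, the p-values hold given the classes. Fold changes are on TMM-normalized counts, which set the bulk of the genes level between groups.

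In MEC-like cells against the other epithelial cells, both neuregulins were higher and both secretory-cell receptors were lower. Nrg1 was 83.6-fold higher (log2 fold change 6.39 ± 0.26 SE, adjusted p = 5.4e-07), and Nrg2 was 11.7-fold higher (3.55 ± 0.33, adjusted p = 4.08e-05). Egfr was 3.47-fold higher (1.80 ± 0.46, adjusted p = 0.0144), a call that was lost without Male library 1 (1.53, adjusted p = 0.0732) and without the block for the library (1.44, adjusted p = 0.148). The other epithelial cells held 1055, 334 and 274 duct-like cells beside 740, 1503 and 1972 acinar-like cells. The Egfr fold depends on this mix, and Egfr in MEC-like cells, at 117 ± 16.4 CPM, overlapped that in duct-like cells, at 135 ± 44.4. Erbb3 fell by 3.26 on the log2 scale (adjusted p = 0.000324; 0.0922 with total UMIs in place of TMM) and Erbb2 fell by 1.87 (adjusted p = 0.00531). The Erbb2 direction turned to 0.37 under the same scaling, one that moved the median of all genes by 2.24. Relative to that median Erbb2 was at -1.77, but this sets the bulk of the genes level again, as TMM does, and is no separate check. Hbegf and Tgfa did not pass, with log2 fold changes of -1.08 and 1.36. In all, 5 of the 7 members that passed the filter on low counts were called, against 29.6% of 11941 genes tested, while Areg and Ereg were too rare to test.

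The pathway around the members was followed with 37 further genes, grouped by role from general knowledge of the family into other ligands and receptor, release of ligands, adaptors, inhibitors and feedback, and downstream targets. In MEC-like cells 9 of 33 tested were higher and 3 lower, beside 13.2% higher and 16.4% lower of all genes tested. Of 14 genes of inhibitors and feedback, 6 were called, each of them higher, with a median log2 fold change of 0.55 beside -0.11 over all genes tested. Among the called genes the largest changes were in Etv5, an ETS transcription factor induced by receptor tyrosine kinases, at 5.42 (adjusted p = 5.84e-06, 190 UMIs in MEC-like cells against 44), and in Nrg4, an ERBB4 ligand, which fell by 4.38 with 2 against 487 UMIs. The other receptor, Erbb4, was at -6.45 without passing.

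In duct-like cells against the other epithelial cells, Egfr and Hbegf, a receptor and one of its ligands, were both higher. Egfr was 5.33-fold higher (2.42 ± 0.24, adjusted p = 2.73e-09), and Hbegf was 3.52-fold higher (1.81 ± 0.37, adjusted p = 0.000229). Erbb3 fell by 1.42 (adjusted p = 0.000201) and Nrg1 by 2.33 (adjusted p = 0.000134), the latter against a remainder that includes the MEC-like cells. Both directions turned under total UMIs, to 0.88 and 0.36, where the median gene moved by 2.34. Relative to that median they were at -1.41 and -1.93, which sets the bulk of the genes level as TMM does and is no separate check. Without the Female library Nrg1 was at -0.34 (adjusted p = 0.629), and with DESeq2 at -1.63 (adjusted p = 0.0657). Nrg2 (0.53), Tgfa (1.79) and Erbb2 (-0.51) did not pass. The 4 called of 7 tested stood beside 36.0% of 11816 genes.

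Among the pathway genes in duct-like cells 12 of 34 tested were higher and 7 lower. Of the inhibitors and feedback genes 8 of 14 were higher and 2 lower, beside 15.3% and 20.7% of all genes, with a median of 1.21 beside -0.05 over all genes. Of 6 downstream targets 3 were higher and 1 lower. The 2 named by their size of change were lower. Erbb4, the remaining receptor, had 0 UMIs in duct-like cells and 64 in the other epithelial cells, and Egf had 10 against 656 UMIs (log2 fold change -4.64, adjusted p = 4.56e-10).

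In Ltf+-like cells 1 of 7 members was called, beside 13.1% of 11312 genes. Nrg1 fell by 2.39 ± 0.30 (adjusted p = 0.00164), against a remainder that includes the MEC-like cells. The Ltf+-like level of 8.44 CPM was above the acinar-like level of 1.03 and overlapped that of duct-like cells. The other 6 members lay between -0.42 and 0.51 on the log2 scale without passing. Without the Female library 2 of 6 tested were called. Scaling by total UMIs gave 4, but it moved the median gene by 0.97 and called 5027 genes higher and 210 lower. Of the pathway genes 2 of 32 were higher and 3 lower, beside 6.29% and 6.83% of all genes tested. Btc, the gene of betacellulin, an EGFR and ERBB4 ligand, was higher at 3.47 (adjusted p = 0.0119) on 20 against 10 UMIs, and this call was lost without Male library 1 (2.93, adjusted p = 0.0659) and with mitochondrial shares under 5% (2.47, adjusted p = 0.247). Etv5 fell by 2.75 (adjusted p = 0.00501), also against a remainder with the MEC-like cells, where it was called higher.

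In acinar-like cells 4 members were lower and 1 higher of 7 tested, beside 46.9% of 11971 genes called. Nrg1 fell by 6.29 (adjusted p = 3.19e-05), Nrg2 by 4.97 (adjusted p = 0.000108), Egfr by 3.57 (adjusted p = 6.77e-05) and Hbegf by 1.11 (adjusted p = 0.0114). Erbb3 was 1.83-fold higher (0.87 ± 0.24, adjusted p = 0.0236), but turned to -1.33 under total UMIs, where the median of all genes moved by -2.21. It was 0.94 above that median, which sets the bulk of the genes level as TMM does and is no separate check. DESeq2 did not call Erbb3 (0.83, adjusted p = 0.0815) or Hbegf (-1.15, adjusted p = 0.0648). Erbb2 (0.47) and Tgfa (-2.18) did not pass. Of the 34 pathway genes tested 9 were higher and 17 lower, beside 21.2% and 25.7% of all genes tested. Among inhibitors and feedback 10 of 14 were lower and 2 higher, with a median of -1.10 beside -0.06, and 4 of 6 downstream targets were lower and 1 higher. Etv5 fell by 6.24 (3 against 231 UMIs, adjusted p = 0.00016), and Etv4, a close relative of Etv5, had 0 UMIs in acinar-like cells against 22.

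The other members of the family in the epithelium, chosen for naming here after their values were seen, lay in the secretory cells. Egf was at 106, 60.4 and 57.0 CPM in acinar-like and 50.8, 48.7 and 30.0 in Ltf+-like cells. Nrg4 was at 19.1, 81.7 and 73.4 CPM in acinar-like cells, lowest in the Female library, and at 17.3 ± 9.17 in Ltf+-like cells. Erbb4 was low but even in acinar-like cells, at 7.95, 7.50 and 7.99 CPM from 60 UMIs, with 4 in Ltf+-like and none in duct-like or MEC-like cells. Btc had 20 UMIs in Ltf+-like cells, Epgn had 4 UMIs, all in duct-like cells, and Nrg3 had none in any named class.

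**Figure D4:**
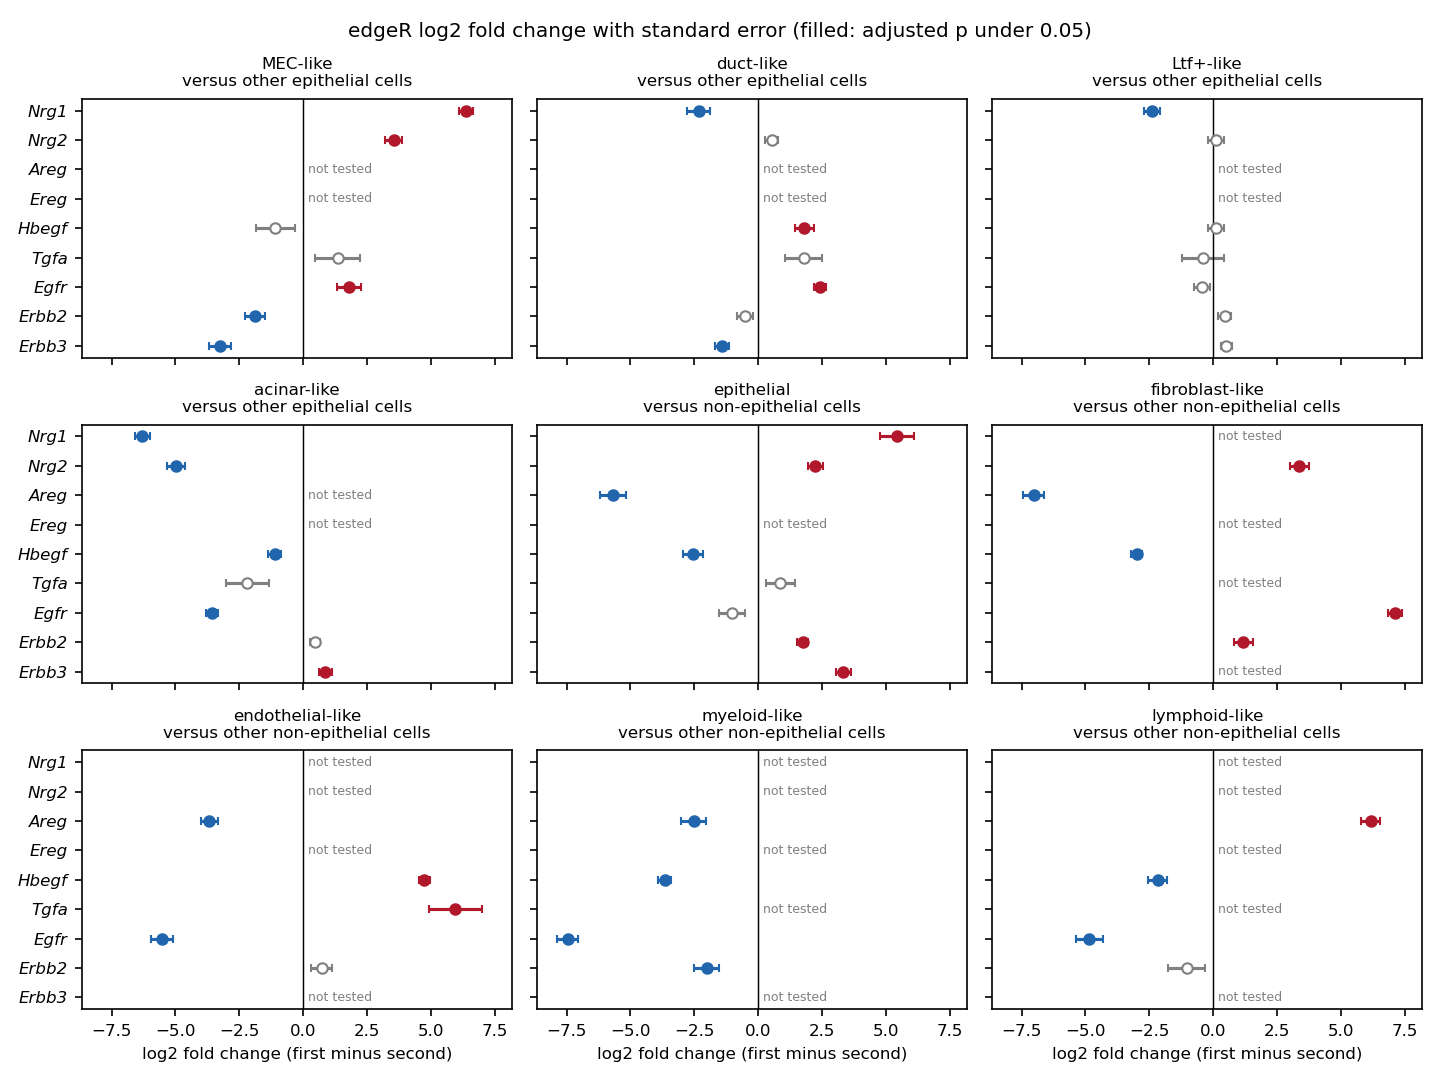
Log2 fold changes with standard errors of the members tested in 9 comparisons of cell groups (edgeR, TMM-normalized sums per library), with filled points for an adjusted p under 0.05, red where higher and blue where lower in the first group. Nrg1 in MEC-like cells is at 6.39 and Egfr in fibroblast-like cells at 7.13, and the directions of Erbb2 in MEC-like, of Nrg1 and Erbb3 in duct-like and of Erbb3 in acinar-like cells turn under scaling by total UMIs.

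In all epithelial cells against all other named cells, 4 members were higher and 2 lower of 8 tested, beside 52.4% of 14265 genes called. Nrg1 was 43.6-fold higher (adjusted p = 0.000539), Erbb3 10.1-fold (adjusted p = 0.000132), Nrg2 4.74-fold (adjusted p = 0.000671) and Erbb2 3.35-fold (adjusted p = 0.000521). The neuregulin folds depend on the mix of classes, as MEC-like cells held 522 of the 579 epithelial Nrg1 UMIs. Acinar-like cells were at 1.03 CPM for Nrg1 and at 2.50 for Nrg2, the latter below 21.4 in fibroblast-like cells. Areg was 51.3-fold lower (adjusted p = 0.000125) and Hbegf 5.86-fold lower (adjusted p = 0.0016). Egfr (-1.02) and Tgfa (0.87) did not pass. With total UMIs, where the median gene moved by -1.72, the Erbb2 change was 0.02 (adjusted p = 0.943) and that of Nrg2 0.51 (adjusted p = 0.134). Of 33 pathway genes 6 were higher and 11 lower, beside 23.6% and 28.8% of all genes tested. They were led by Adam12, a metalloprotease that cuts HB-EGF, at -7.09 (1 against 142 UMIs, adjusted p = 0.00019), and Spry4, a feedback inhibitor, at -4.35 (adjusted p = 0.000189).

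Among the non-epithelial cells, fibroblast-like cells stood out for Egfr. Against the other non-epithelial classes Egfr was 140-fold higher (7.13 ± 0.29, adjusted p = 2.45e-09) and Nrg2 10.4-fold higher (3.38 ± 0.37, adjusted p = 9.4e-06). The 140-fold size rests on few counts, as endothelial-like, lymphoid-like, myeloid-like and mural-like cells held 4, 3, 2 and 1 Egfr UMIs. Erbb2 was 2.27-fold higher (adjusted p = 0.0171), a call that was lost without Male library 1 (1.02, adjusted p = 0.0646), with DESeq2 (1.33, adjusted p = 0.0951) and with free RNA of barcodes of 10 to 100 UMIs taken off (1.58, adjusted p = 0.204). Areg fell by 7.03 (adjusted p = 2.74e-08) and Hbegf by 3.00 (adjusted p = 3.53e-07), against a remainder with the lymphoid-like and endothelial-like cells, where they were highest. All 5 members tested were called, beside 52.5% of 11074 genes. Of 32 pathway genes 13 were higher and 12 lower, beside 23.45% and 29.05% of all genes tested, and all 6 genes of ligand release were called, 3 in each direction. Adam12 was higher at 4.68 (133 against 9 UMIs, adjusted p = 2.4e-06), and so was Lrig1, an inhibitor that lowers EGF receptors at the membrane, at 4.10 (173 against 15 UMIs, adjusted p = 1.48e-06).

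In endothelial-like cells Hbegf was 26.7-fold higher (4.74 ± 0.21, adjusted p = 6.73e-22), and Tgfa had 22 UMIs against 1. Tgfa passed the filter on low counts in no other comparison among the non-epithelial cells, so its call (adjusted p = 6.53e-06) is given only as a description, with no size. Egfr fell by 5.54 (adjusted p = 1.42e-14) and Areg by 3.66 (adjusted p = 7.72e-12), and Erbb2 (0.72) did not pass. The remainder held the fibroblast-like and lymphoid-like cells, where Egfr and Areg were highest. Among all classes endothelial-like cells ranked 3rd for Areg, at 11.1 ± 7.51 CPM. The 4 called of 5 tested, Tgfa among them, stood beside 42.4% of 10938 genes. Of 32 pathway genes 9 were higher and 10 lower, beside 17.6% and 24.8% of all genes tested. The 2 called genes with the largest changes were Adam12, which fell by 3.83 (2 against 140 UMIs, adjusted p = 1.34e-05), and Ier3, an early response gene, which rose by 3.28 (5056 against 2298 UMIs, adjusted p = 4.13e-24).

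In myeloid-like cells the 4 members tested were all lower, beside 51.3% of 9940 genes called. Egfr fell by 7.46 (adjusted p = 2.26e-09), Hbegf by 3.66 (adjusted p = 2.34e-08), Areg by 2.52 (adjusted p = 0.000494) and Erbb2 by 2.02 (adjusted p = 0.00376). The remainder held the fibroblast-like, endothelial-like and lymphoid-like cells, where Egfr, Hbegf and Areg were highest. Among all classes myeloid-like cells ranked 2nd for Areg, at 16.2 ± 14.1 CPM, and overlapped endothelial-like cells. With free RNA of barcodes of 10 to 100 UMIs taken off, Areg (-2.43, adjusted p = 0.0585) and Erbb2 (-2.39, adjusted p = 0.0656) were no longer called, although that window held no Areg UMI and so took none of Areg itself off. DESeq2 did not call Erbb2 either (-1.87, adjusted p = 0.0871). The pathway genes were lower in 14 and higher in 5 of 29 tested, beside 27.2% lower and 24.1% higher of all genes tested. Adam12 had 0 against 142 UMIs, and Spry4 fell by 6.62 with 2 against 526 UMIs (adjusted p = 3.04e-08). Within the myeloid-like cells, M1-like macrophages, which carry inflammatory transcripts, were compared with the rest, and no member passed the filter on low counts there, beside 8.72% of 6606 genes called. Areg had 34 UMIs in M1-like macrophages, at 4.95, 64.2 and 16.3 CPM. Of 20 pathway genes 2 were called, Phlda1 (1.33, adjusted p = 3.34e-06) and Spred1 (0.88, adjusted p = 0.0037), both higher. Spred1 was lost with DESeq2 (adjusted p = 0.254), without the block (0.397) and with free RNA of barcodes of 10 to 100 UMIs taken off (0.135), and Phlda1 with the last (0.0882).

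In lymphoid-like cells Areg was 72.0-fold higher than in the other non-epithelial cells (6.17 ± 0.38, adjusted p = 4.51e-20), whereas Hbegf fell by 2.16 (adjusted p = 2.83e-06) and Egfr by 4.84 (adjusted p = 3.53e-11). The remainder held the endothelial-like and fibroblast-like cells, where Hbegf and Egfr were highest. Erbb2 (-1.04) did not pass, and the 3 called of 4 tested stood beside 37.9% of 10244 genes. Of 32 pathway genes 5 were higher and 15 lower, beside 13.9% and 24.0% of all genes tested, and 5 of 6 genes of ligand release were lower. Etv5 had 0 against 257 UMIs, and Spry4 fell by 4.69 with 2 against 526 UMIs (adjusted p = 1.33e-07).

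Within the lymphoid part, Areg was 11.9-fold higher in ILC-like cells than in the other lymphoid-like cells (3.57 ± 0.25, adjusted p = 4.49e-44), and it was higher in 3 of 3 libraries. It was the only member that passed the filter on low counts, beside 15.4% of 2832 genes called. Of 8 pathway genes tested, Cblb, a ubiquitin ligase that restrains receptor signalling, fell by 2.17 (adjusted p = 0.000633; 0.495 with DESeq2, and 0.22 and 0.0869 with free RNA of the 2 windows taken off), and Dusp5, a phosphatase induced by ERK signalling, was higher at 1.10 (adjusted p = 0.000514). The Dusp5 call was lost in 6 of 14 alternatives, among them without the Female library (0.48, adjusted p = 0.533) and with DESeq2 (1.01, adjusted p = 0.198).

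Of the EGFR ligands with enough UMIs to order the classes, Areg and Hbegf were highest in lymphoid-like and endothelial-like cells, which held 3 and 4 Egfr UMIs. Hbegf and Egfr were both called higher in duct-like than in other epithelial cells. Nrg1 and Nrg2 were highest in MEC-like cells, which held 7 Erbb3 UMIs, at 7.80 ± 4.64 CPM. On the scale of all UMIs Erbb3 in MEC-like cells overlapped that in acinar-like cells. Nrg2 was also at 38.8 CPM in Ltf+-like cells, where Erbb3 was at 72.0. These are transcript levels in separate cells, and neither protein, contact nor signalling was measured.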

How the data were processed

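Cells dissociated from whole LGs were captured by Chromium 3′ chemistry. The deposited UMI counts per gene and barcode were made by the authors with Cell Ranger 6.1.2 on mm10, per the submitters' processing notes. Filtered matrices gave the called cells, and barcodes outside them the free RNA. The limits for a cell were 500 UMIs and 200 genes, both to be exceeded, and under 15% mitochondrial UMIs, and 646, 287 and 315 likely doublets were removed by a score from simulated doublets at 0.8% per 1000 barcodes. Cells were clustered in Seurat 5.3.0 without the 9 members, the 37 pathway genes, and tear-product, mitochondrial, ribosomal, hemoglobin and sex-linked genes, and clusters were named from marker sums. The naming rule and the list of 125 tear-product genes were completed after seeing the data, and 634 kept cells stayed unnamed.

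Counts were summed per library and group and tested with edgeR 4.0.16 (filterByExpr, TMM, library block, Benjamini-Hochberg, threshold 0.05) in R 4.3.3, in place of the authors' test over cells. DESeq2 1.42.0 was an alternative. The scripts were tested on simulated data. Levels (CPM) are UMIs scaled to 1000000 UMIs outside tear-product and mitochondrial genes. UMIs are not proof of independent molecules, so intervals cover counting error only. The effect of tissue digestion on transcript levels was not tested. The library block stands for cells of 1 suspension.

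All 9 members are named, then in each comparison the 2 called pathway genes with the largest absolute log2 fold change, and for each member with at least 100 UMIs the 3 genes of at least 500 UMIs closest in log2(level + 20). The members and lists were chosen with earlier results of these data known.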

Additional observations from a re-analysis of the deposited data

How the results depend on the processing

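The counts of called members were within 1.5 times of those reported in 139 of 145 alternatives. The exceptions were Ltf+-like cells with total UMIs in place of TMM (4), and without the Female library (2; 1 to 2 over the leave-outs), acinar-like cells with DESeq2 (3), myeloid-like cells with free RNA of barcodes of 10 to 100 UMIs taken off (2), and M1-like macrophages with no filter on low counts (1) and without Male library 2 (1; 0 to 1 over the leave-outs). Of single genes, 727 of 764 alternative values kept direction and call, 33 lost the call and 4 turned, all with total UMIs: Erbb2 in MEC-like cells (0.37), Nrg1 (0.36) and Erbb3 (0.88) in duct-like cells and Erbb3 in acinar-like cells (-1.33). Dropping the library block ended 4 calls, of Egfr in MEC-like, Erbb3 in acinar-like, Dusp5 in ILC-like and Spred1 in M1-like cells, and no other. Under total UMIs the median gene moved by 2.24, 2.34, 0.97 and -2.21 in MEC-like, duct-like, Ltf+-like and acinar-like cells, by -1.72 in the epithelium, and by 0.41, 0.19, -0.45 and -0.49 in fibroblast-like, endothelial-like, myeloid-like and lymphoid-like cells. The share of higher genes among those called went from 44.6% to 97.5%, 42.6% to 97.6%, 48.0% to 96.0%, 45.1% to 0.39% and 45.1% to 5.72% in the first 5, and from 44.7% to 66.3%, 41.5% to 53.3%, 46.9% to 25.8% and 36.6% to 16.1% in the last 4, and from 58.7% to 42.6% in M1-like macrophages.

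Shares of cells with a UMI moved with depth. Thinned to 300 UMIs outside tear-product and mitochondrial genes, and not thinned, they were 11.4% and 34.3% for Nrg1 and 6.65% and 25.9% for Nrg2 in MEC-like cells, 8.39% and 26.1% for Hbegf in endothelial-like cells, 5.54% and 23.8% for Egfr in fibroblast-like and 3.62% and 24.5% in duct-like cells, and 1.18% and 5.84% for Erbb2 and 2.26% and 10.0% for Erbb3 in acinar-like cells. For Erbb3 in Ltf+-like cells it was 10.1% not thinned. The free-RNA limit covered 4 pairs of gene and class, resting on 1 Erbb3 UMI, and 1 with barcodes over 500 UMIs, an alternative added after seeing the data. The class of the highest mean was unchanged on the scale of all UMIs for 8 of 9 members, Erbb2 moving to duct-like cells, and leaving out a library moved it only for Ereg (to duct-like without the Female library) and Tgfa (to MEC-like without Male library 1, to endothelial-like without Male library 2).

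With 3 pooled libraries and 10 and 68 UMIs, Ereg and Tgfa were too shallow for an order of cell types.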
